A study of Mus musculus with 12 samples.

Results

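The genes described here distinguished inguinal from epididymal fat fibroblasts in both sorted fractions of a 12-array experiment. They were taken by a size rule. A gene was kept when its inguinal minus epididymal difference in mean log2 signal had the same sign and was at least 1 both in GFP+ and in GFP- cells. Of 12393 genes tested, 385 met the rule, 137 with higher signal in inguinal cells and 248 with higher signal in epididymal cells. After quantile normalization the rule kept 155 and 196. All 12 arrays of the series were used, 3 for each of the 4 combinations of depot (inguinal or epididymal) and sort (GFP+ or GFP-), so that 6 inguinal arrays stood against 6 epididymal ones. The cells were fibroblasts of the stromal vascular fraction, the non-adipocyte cells of fat, from male mice of 6 to 8 weeks on a mixed FVB and C57BL/6 background. Every animal, including those that gave the GFP- cells, carried the Zfp423-GFP transgene, whose construction is not given in the sources used here. GFP was used for the sort, and the sorted cells were put back into culture in DMEM/F12 with serum and taken for RNA while still growing. Whether the 3 samples of a group are separate animals or separate cultures is not stated, so part of the variation among them may be technical. The p-values within each sort reflect the variation among the samples alone. Those for depot or sort over all 12 arrays also take in how far the depot difference depended on the sort.

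Inguinal fat lies under the skin of the groin and epididymal fat lies inside the abdomen, attached to the male reproductive tract. The stromal cells of different fat depots arise from different parts of the embryonic mesoderm and keep position-dependent transcription factors of the homeobox, T-box and related families into adult life and in culture. Visceral depots are covered by a mesothelium, a flat cell layer that expresses Wt1 together with keratins, and subcutaneous fat has no such covering. Secreted Wnt and BMP proteins and their antagonists, which pattern the limb and trunk, also govern how readily such cells become adipocytes.

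Signal was read on 1 probe set per gene, and differences are given on the log2(signal + 16) scale as inguinal minus epididymal, so that a negative value means higher signal in epididymal cells. The standard errors (SE) and adjusted p come from limma, and "common" marks the depot coefficient over all 12 arrays with the sort as a block. Array medians lay between 347.3 and 371.2, and arrays of one group correlated across genes at r of 0.993 to 0.995. All 10 fibroblast identity genes checked, among them Col1a1, Col3a1, Pdgfra and Vim, had a mean above the weak-signal level of 77.7 in every group, and their summed signal ranged from 190543 to 202576 over the 12 arrays. Vim, Fn1 and the collagens were the brightest, so the sum can hide changes in other members. Pdgfrb had a mean of 4042 in epididymal GFP- cells against 11860 to 13349 in the other groups. Thy1 gave 1.24 in GFP+ and 0.47 in GFP- cells, and Dcn and Lum were themselves kept as epididymal-high genes. Markers of mesothelium were read as well. Of 17 genes, 10 had a weak mean in inguinal GFP+, 9 in inguinal GFP-, 2 in epididymal GFP+ and 1 in epididymal GFP- cells. Their summed signal over the 17 genes was 21543 to 28565 on the inguinal arrays, 32582 to 33193 in epididymal GFP+ and 83929 to 87005 in epididymal GFP- cells. The inguinal sum thus rests on the members that were not weak there. The summed signal of 24 macrophage and leukocyte markers was 2937 to 3345 in inguinal GFP+, 19356 to 23160 in inguinal GFP-, 4091 to 4549 in epididymal GFP+ and 5664 to 6371 in epididymal GFP- cells. In the same order of groups 16, 5, 14 and 12 of these markers had a weak mean. In such mixed cultures fewer cells of a type and less RNA per cell cannot be told apart. Zfp423, the gene for which the transgene is named, showed no common depot difference past the threshold (-0.10 ± 0.26, adjusted p = 0.78). It was lower in inguinal than in epididymal GFP+ cells (124 ± 22.9 against 242 ± 35.1; mean ± SD, n = 3) and higher in inguinal than in epididymal GFP- cells (57.4 ± 13.8 against 29.4 ± 3.80). Both GFP- means were under the weak-signal level of 77.7, so that direction rests on values near the array floor.

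The depots differed over much of the array. The common depot coefficient passed an adjusted p of 0.05 for 51.3% of all genes (24.7% higher in inguinal and 26.7% higher in epididymal cells), and the arrays of the depots did not overlap for 29.8%. The size rule kept 3.11% of genes, 1.11% on the inguinal side and 2.0% on the epididymal side. These shares of all genes are the background for the counts of gene lists below. All 385 kept genes were called in the common fit, with a highest adjusted p of 0.00656, and all were called within GFP+ cells (50.8% of all genes were) and within GFP- cells (53.7%). For 374 of them no inguinal array overlapped an epididymal one. Since the rule chose genes for this difference, these values describe the set and are no support for it. A difference of at least 1 was seen for 718 genes in GFP+ cells and 1286 in GFP- cells, which rest on separate arrays. The other sort gave the same sign for 85.7% of the first and 82.7% of the second, against 70.2% of all genes. The kept genes made up 53.6% and 29.9% of the 2 sets, and 32 genes reached 1 in both sorts with opposite signs. Across all genes the depot differences of the 2 sorts had a Pearson r of 0.59 and a Spearman rho of 0.53, which only describes these arrays, because genes do not replicate one another.

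**Figure D1:**
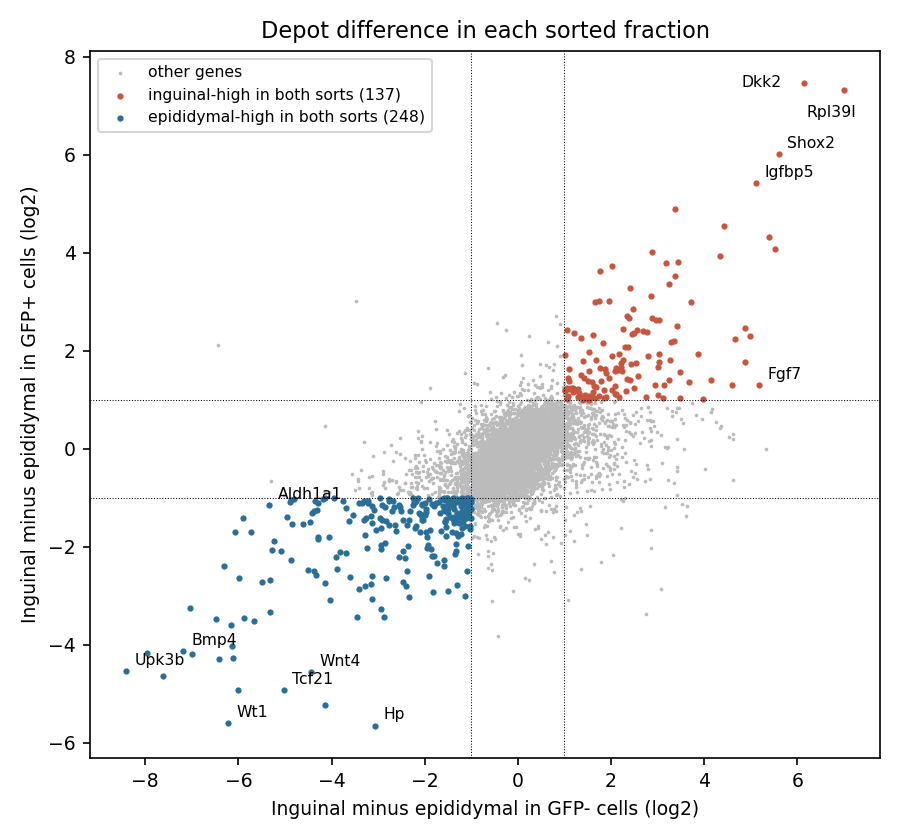
Each point is 1 of 12393 genes, placed by its inguinal minus epididymal difference in mean log2(signal + 16) in GFP- cells (horizontal axis) and GFP+ cells (vertical axis), with dotted lines at 1 and -1. The 137 inguinal-high genes (red) and 248 epididymal-high genes (blue) fill the corners of equal sign, and many blue points lie farther from 0 in GFP- than in GFP+ cells.

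Among the inguinal-high genes, Rpl39l ranked first by the smaller of its differences in the sorts. It encodes a paralogue of the ribosomal protein Rpl39 that is best known from the testis. Rpl39l signal was 6550.1, 6721 and 6149 on the inguinal GFP+ arrays and 7199, 7309 and 7105 on the inguinal GFP- arrays. The epididymal arrays read 25.9, 11.9 and 41.7 in GFP+ and 34.5, 35.5 and 53.0 in GFP- cells, all under the weak-signal level, so the size of the difference depends on the array floor and the added 16. The common difference was 7.16 ± 0.15 (SE; adjusted p = 2.7e-11), with 7.32 ± 0.18 in GFP+ and 7.0 ± 0.18 in GFP- cells, and the sorts did not differ beyond the threshold (interaction 0.32, adjusted p = 0.402). Other ribosomal protein paralogues were not alike in this. Of 11 measured, 4 (36.4%) were called higher in inguinal cells and 0 in epididymal cells (24.7% and 26.7% of all genes), with a median of 0.01. The parent gene Rpl39 gave -0.15 (adjusted p = 0.6) on a weakly detected probe set, and Rps4l gave 2.01 (0.83 in GFP+ and 3.20 in GFP- cells).

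Secreted regulators of Wnt signalling stood on both sides. Dkk2, an antagonist that binds the Wnt coreceptors, read 6723, 5947 and 6694 in inguinal GFP+ and 2374, 2371 and 2635 in inguinal GFP- cells. It read only 30.1, 20.7 and 12.7 in epididymal GFP+ and 3.06, 27.8 and 35 in epididymal GFP- cells, so the depots were apart on every array while the GFP+ cells were the brighter of the inguinal cells. The difference was 7.47 ± 0.26 in GFP+ and 6.15 ± 0.26 in GFP- cells, with a common adjusted p of 4.65e-09. Rspo2, an R-spondin that enhances Wnt signalling, followed the same order, with means of 1818 ± 287 and 297 ± 15.7 in inguinal against 45.3 ± 4.94 and 14.9 ± 7.67 in epididymal GFP+ and GFP- cells. Dkk3, a more distant Dickkopf relative, gave 1.47 ± 0.09 and the R-spondin receptor Lgr6 1.34 ± 0.15. The inguinal and epididymal arrays overlapped for Lgr6, whose common GFP effect (2.06 ± 0.15, GFP+ minus GFP-) exceeded its depot difference.

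The bases upstream of the Dkk2 start are shown because they hold a TATA box near the position at which such boxes act, which 11.8% of the inguinal-high promoters and 9.14% of all promoters matched to tested genes share somewhere in their 250 upstream bases. The sequence is chr3:132085042-132085291 of RefSeq assembly GRCm38.p6, plus strand, written 5′ to 3′ and ending 1 base before the annotated start. Capitals mark TATAAA at -32 and, on the opposite strand, CCAAT at -65 (printed as ATTGG).
Dkk2: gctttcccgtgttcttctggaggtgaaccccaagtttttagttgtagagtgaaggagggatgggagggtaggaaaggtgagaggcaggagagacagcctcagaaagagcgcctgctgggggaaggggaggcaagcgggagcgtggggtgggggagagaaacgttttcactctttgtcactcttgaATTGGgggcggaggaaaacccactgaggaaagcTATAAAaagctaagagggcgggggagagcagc
Both motifs were searched on both strands, and positions count back from the start, which lies at 0. A match is a description of the letters and not a tested site.

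On the epididymal side the Wnt list was led by Wnt4, a ligand needed for the development of the female tract, kidney and adrenal. Wnt4 read 83.0, 71.9 and 47.3 in inguinal GFP+ and 161, 149.7 and 133 in inguinal GFP- cells, against 1841, 2035 and 1873 in epididymal GFP+ and 3782, 3224 and 3633 in epididymal GFP- cells. The depot difference was nearly the same size in the sorts (-4.56 ± 0.13 and -4.44 ± 0.13; interaction adjusted p = 0.686), although within each depot GFP- cells were the brighter. Rspo1, the R-spondin that acts with Wnt4 in gonad development, gave -3.25 ± 0.20 and -7.04 ± 0.20, and the soluble antagonist Frzb -1.31 ± 0.10 and -1.31 ± 0.10. Of 49 measured Wnt pathway genes, 7 (14.3%) were called higher in inguinal cells and 16 (32.7%) in epididymal cells (24.7% and 26.7% of all genes). The median was -0.23 against -0.03 for all genes tested. Axin2, a common target of the pathway, gave -0.09 (adjusted p = 0.484).

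Position-dependent transcription factors were among the kept genes of the inguinal side. Shox2, a homeobox gene of the proximal limb, read 2506, 2063 and 2603 in inguinal GFP+ and 2007, 1964 and 1996 in inguinal GFP- cells. Its epididymal readings were 9.53, 38.9 and 20.7 in GFP+ and 34.3, 36.7 and 10.2 in GFP- cells, near the floor on all 6 arrays, for a common difference of 5.81 ± 0.21. Tbx15, a T-box factor known as a marker of subcutaneous fat and body wall, was as even across the sorts, with 2209 to 2697 on the inguinal and 78.8 to 101 on the epididymal arrays and a common difference of 4.49 ± 0.06 (adjusted p = 9.15e-13). The LIM homeobox factor Lhx8 read 338 to 415 in inguinal and 7.93 to 28.3 in epididymal cells. Of 6 measured Iroquois genes, homeobox factors that sit in clusters, 4 were kept: Irx2 (3.28 in GFP+ and 2.41 in GFP- cells), Irx1 (2.31 in GFP+ and 4.99 in GFP- cells), Irx3 (1.57 in GFP+ and 3.48 in GFP- cells) and Irx5 (2.62 in GFP+ and 3.02 in GFP- cells). Irx1 and Irx3 had a larger difference in GFP- cells, and their epididymal signal was lower there (Irx1 376 ± 33.8 in epididymal GFP+ and 30.5 ± 9.95 in epididymal GFP- cells). Irx4 (-0.33) and Irx6 (-0.21) were weakly detected and not called.

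Of 36 measured limb and body wall position factors, 13 (36.1%) were called higher in inguinal and 6 (16.7%) in epididymal cells. Of all genes 24.7% and 26.7% were, and 7 and 1 of the factors met the size rule. Twist2, a basic helix-loop-helix factor of dermal mesenchyme, was the seventh on the inguinal side, with 1.01 in GFP+ and 3.98 in GFP- cells. Meis1, a homeobox partner of Hox proteins, was the epididymal one (-1.49 ± 0.10), and its relative Meis2 was also called higher in epididymal cells (-1.40) but reached only -0.52 in GFP+ cells. The limb factor Tbx5 and Pitx1, a hindlimb factor, were called on the inguinal side on weakly detected probe sets (0.67 and 0.69).

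Factors of the visceral mesoderm formed the counterpart. Wt1, the zinc-finger factor of mesothelium, kidney and gonad, read 3678, 3800.0 and 3816 in epididymal GFP+ and 5589.6, 5586 and 5598 in epididymal GFP- cells. The inguinal arrays gave 62.9, 56.7 and 65.7 in GFP+ and 39.7, 59.6 and 84.8 in GFP- cells, for a common difference of -5.91 ± 0.14 (adjusted p = 6.8e-11). Tcf21, a basic helix-loop-helix factor of visceral organ mesenchyme and epicardium, read 1414, 1495 and 1364 and 1118, 1475 and 1315 in epididymal GFP+ and GFP- cells. It stayed at 19.1 to 45.4 on the 6 inguinal arrays, and its difference was -4.93 ± 0.18 in GFP+ and -5.02 ± 0.18 in GFP- cells, a gap between sorts of 0.10 ± 0.25 (adjusted p = 0.823). Like Tbx15 on the other side, Tcf21 was bright in 1 depot in both sorts.

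The GATA factor Gata6 was detected in both depots, at 716 to 811 in inguinal, 2069 to 2206 in epididymal GFP+ and 7141 to 7967 in epididymal GFP- cells (-1.46 in GFP+ and -3.31 in GFP- cells). Gata5 gave -1.41 ± 0.13 and Gata4, weakly detected, -0.29 (adjusted p = 0.23). Bnc1, a zinc-finger factor of mesothelium and squamous epithelium, gave -4.17 ± 0.13 in GFP+ and -7.96 ± 0.13 in GFP- cells. In all, 10 of 22 measured visceral mesoderm factors (45.5%) were called higher in epididymal cells, 5 of them within the size rule. Osr1 (0.86) was the 1 called higher in inguinal cells (4.55%). Of all genes, 26.7% and 24.7% were so called.

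The 250 bases upstream of Tcf21 are given as the example of an epididymal-high promoter that holds a GATA motif, since GATA factors were among the kept genes. The motif AGATAA, searched on both strands, was found in 9.38% of the epididymal-high promoters, 6.86% of the inguinal-high promoters and 7.17% of all promoters of tested genes, so its share was close to the background on both sides. The sequence is chr10:22820144-22820393 of GRCm38.p6, minus strand, 5′ to 3′, from RefSeq, with the match at -31 in capitals.
Tcf21: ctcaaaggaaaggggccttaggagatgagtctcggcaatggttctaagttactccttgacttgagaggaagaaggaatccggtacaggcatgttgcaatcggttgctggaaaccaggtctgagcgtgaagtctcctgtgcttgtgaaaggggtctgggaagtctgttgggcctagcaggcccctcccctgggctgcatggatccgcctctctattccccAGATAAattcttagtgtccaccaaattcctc
Promoters of this table were matched for 102 of the 137 inguinal-high and 192 of the 248 epididymal-high genes, and for 9887 genes in all.

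**Figure D2:**
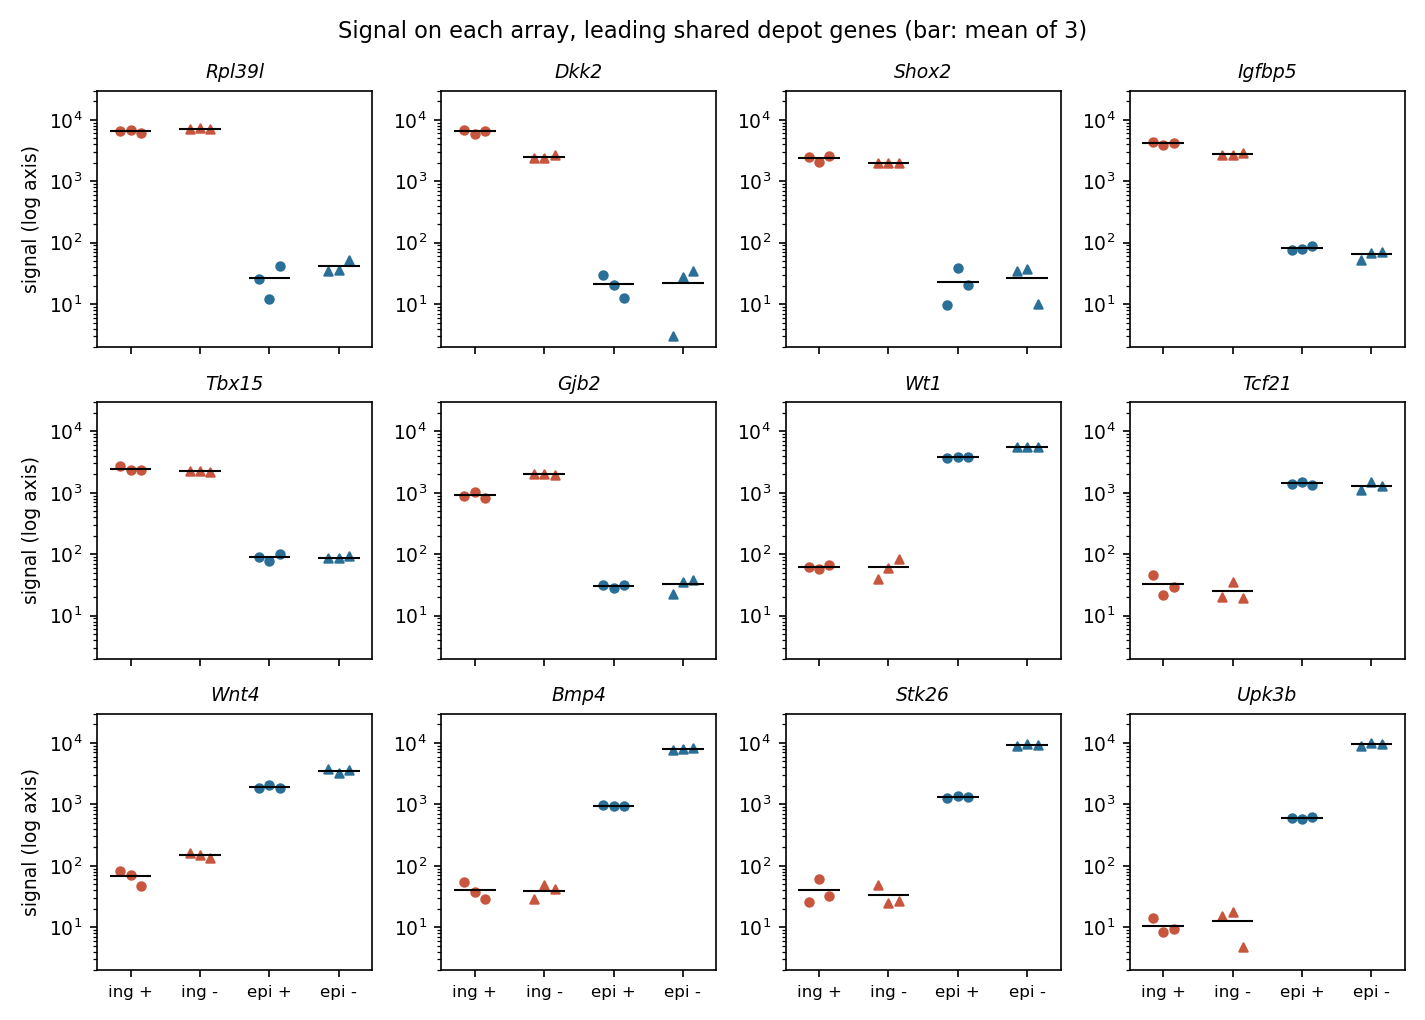
Signal on each of the 12 arrays (log axis) for 12 of the kept genes, with circles for GFP+, triangles for GFP-, red for inguinal, blue for epididymal and a bar at the mean of each 3. The depots are apart on every array for all 12 genes, and Bmp4, Stk26 and Upk3b are higher in epididymal GFP- (epi -) than in epididymal GFP+ (epi +) cells.

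Hox genes, which give cells their position along the body axis, split within the HoxA cluster. Hoxa10, the kept Hox gene with the largest inguinal excess, read 835 to 1191 on the inguinal and 59.1 to 109 on the epididymal arrays (3.44 ± 0.09), and Hoxa9 read 1356 to 1502 and 184 to 314 (2.53 ± 0.08). A further detected probe set of Hoxa9 gave only 0.37 in GFP+ and 1.03 in GFP- cells, so the size of its difference depends on the probe set. The direction was the opposite for Hoxa5, at 407, 418 and 366 in inguinal GFP+ and 365, 381 and 325 in inguinal GFP- against 4426, 4499 and 4457 and 2756, 2635 and 2711 in epididymal GFP+ and GFP- cells (-3.15 ± 0.10). Hoxa7 (-1.48 ± 0.11) and Hoxa3 (-1.52 ± 0.09) were also higher in epididymal cells. A further detected probe set of Hoxa3 gave -0.84 in GFP+ and -0.86 in GFP- cells. In RefSeq gene order, Hoxa5, Hoxa7, Hoxa9 and Hoxa10 are neighbours among the tested genes, so the sign changed between Hoxa7 and Hoxa9. It changed back at Hoxa11, the next measured number, which was called higher in epididymal cells by a small amount (-0.46 ± 0.14, adjusted p = 0.0165). Hoxa11 gave -0.31 in GFP+ and -0.62 in GFP- cells, with group means of 65.2 to 112, near the weak-signal level.

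In the other clusters Hoxc4 gave -1.64 ± 0.10, and Hoxc5 (-1.32), Hoxc6 (-0.68) and Hoxc8 (-0.57) were called on the same side, while Hoxc9 was called higher in inguinal cells (0.49). Hoxd8 (-1.54) and Hoxd9 (-1.05) were called higher in epididymal cells. Hoxb9 was higher in inguinal cells (2.15) but fell short of the size rule in GFP+ cells, with 0.84 there and 3.46 in GFP- cells. Of 31 measured Hox genes, 6 (19.4%) were called higher in inguinal and 12 (38.7%) in epididymal cells (24.7% and 26.7% of all genes). A further 13 were not called, and 12 of the 31 were weakly detected.

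**Figure D3:**
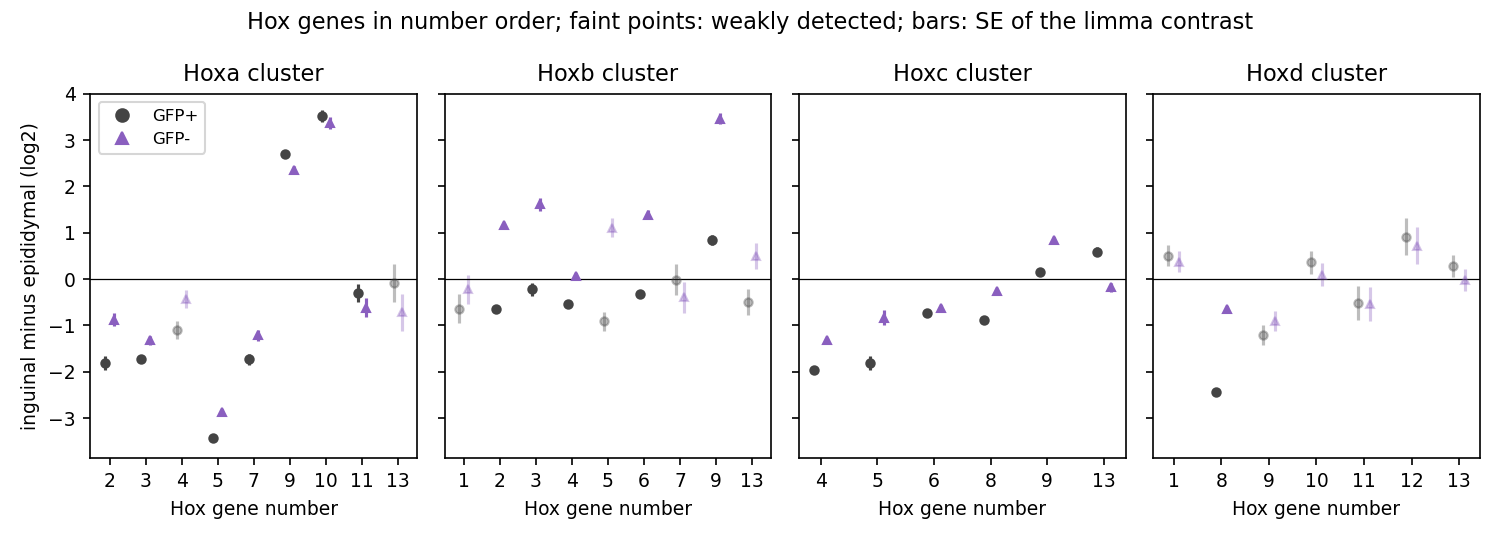
Inguinal minus epididymal difference (log2) of the 31 measured Hox genes by cluster and gene number, in GFP+ (circles) and GFP- cells (triangles), with the SE of the limma contrast as bars and weakly detected genes drawn faint. Hoxa2 to Hoxa7 lie below 0 and Hoxa9 and Hoxa10 above 0 in both sorts, and Hoxa11 lies below 0 again by a small amount.

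BMP signalling genes followed, with the ligand Bmp4 and the inhibitors of DNA binding Id1 to Id4 higher on the epididymal side. Signalling itself was not measured. Bmp4, a ligand that can commit mesenchymal cells to the fat lineage, read 979, 924 and 956 in epididymal GFP+ and 7683, 8049 and 8292 in epididymal GFP- cells. The inguinal readings were 54.7, 37.5 and 28.8 in GFP+ and 28.4, 48.2 and 41.6 in GFP- cells, all weak. Bmp4 was thus apart between depots on every array and also far apart between the epididymal sorts, with a difference of -4.13 ± 0.15 in GFP+ and -7.19 ± 0.15 in GFP- cells. The inhibitors of DNA binding, helix-loop-helix proteins widely used as readouts of BMP signalling, were on the same side: Id1 (-1.42 in GFP+ and -3.27 in GFP- cells), Id2 (-1.57 in GFP+ and -2.78 in GFP- cells) and Id4 (-2.27 in GFP+ and -1.58 in GFP- cells) met the size rule and Id3 (-0.84 in GFP+ and -1.21 in GFP- cells) missed it in GFP+ cells. Unlike Bmp4, Id4 differed more in GFP+ than in GFP- cells. For Id2 the further probe sets did not give the same order of the sorts. They read -1.31 and -2.76, and -1.76 and -0.39, in GFP+ and GFP- cells.

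Among other members, Ltbp1, which binds latent TGF-beta in the matrix, gave -1.42 ± 0.08, and the inhibitory Smad6 gave -0.98. Grem1, a secreted antagonist of Bmp4, was the 1 BMP list gene kept on the inguinal side, at 599 to 835 in inguinal and 67.1 to 131 in epididymal cells (2.77 ± 0.13; interaction adjusted p = 0.556). Over the list, 21 of 49 measured genes (42.9%) were called higher in epididymal and 7 (14.3%) in inguinal cells (median -0.22). Of all genes, 26.7% and 24.7% were so called.

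Stk26, a GCKIII-family kinase linked to cell polarity and the Golgi, ranked second by common difference on the epididymal side, after Upk3b. It read 1274, 1387 and 1327 in epididymal GFP+ and 9074, 9714 and 9296 in epididymal GFP- cells, against 24.7 to 61.2 over the 6 inguinal arrays. The difference was -4.64 ± 0.19 in GFP+ and -7.61 ± 0.19 in GFP- cells, and a further probe set of the gene gave -3.98 and -6.74. The other measured GCKIII kinases moved little, with 0.36 for Stk24 and 0.04 for Stk25 (adjusted p = 0.399). Of 12 kinases and partners, 3 (25%) were called higher in inguinal and 8 (66.7%) in epididymal cells (24.7% and 26.7% of all genes). Apart from Stk26, however, the called values lay between -0.39 (Krit1) and 0.36 (Stk24).

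Growth factors and their binding proteins were divided between the depots. Igfbp5, which binds insulin-like growth factors, was inguinal-high, with 4322, 3853 and 4244 and 2693, 2663 and 2886 in inguinal GFP+ and GFP- cells and 52.7 to 87.7 over the epididymal arrays (5.27 ± 0.08). Its relative Igfbp3 was epididymal-high, at 6496, 7364 and 6635 in epididymal GFP+ and 18911, 19916 and 19960.1 in epididymal GFP- against 205 to 646 in inguinal cells (-4.04 in GFP+ and -6.13 in GFP- cells). Igf1 itself was detected in all groups and higher in epididymal cells (-1.10 in GFP+ and -2.0 in GFP- cells).

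Hgf, the ligand of the Met receptor, and Fgf7, a growth factor for epithelia, were both inguinal-high. Hgf read 1445 to 1784 in inguinal GFP+, 1017 to 1077 in inguinal GFP-, 264 to 316 in epididymal GFP+ and 14.3 to 23.8 in epididymal GFP- cells. Fgf7 read 4264, 4013 and 4320.0 and 3846, 3818 and 3833 in inguinal GFP+ and GFP- cells and 1823, 1702 and 1569.6 in epididymal GFP+ cells, but 98.5, 85.6 and 87.6 in epididymal GFP- cells. The 1 group that stood apart for Fgf7 was therefore epididymal GFP-, and the depots differed by 1.30 ± 0.06 for GFP+ but 5.18 ± 0.06 for GFP- cells.

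The heparin-binding factor Ptn gave 3.49 ± 0.21 and Ngfr, the low-affinity neurotrophin receptor, 2.40 ± 0.23. On the epididymal side stood Kdr, a receptor for vascular endothelial growth factors (-1.09 in GFP+ and -4.90 in GFP- cells), and Vegfd, a member of that growth factor family (-1.14 in GFP+ and -2.06 in GFP- cells). With them were Kitl, the ligand of Kit (-1.35 in GFP+ and -2.03 in GFP- cells), Fgf18 (-1.48 in GFP+ and -1.32 in GFP- cells) and the receptor Fgfr2 (-1.14 in GFP+ and -2.92 in GFP- cells). Over the list, 17 of 46 growth factor genes (37.0%) were called higher in inguinal and 22 (47.8%) in epididymal cells, 5 and 7 within the size rule. Of all genes, 24.7% and 26.7% were so called.

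Retinoid genes crossed in the same way. Crabp1 and Crabp2, which carry retinoic acid inside the cell, were inguinal-high (3.64 in GFP+ and 1.76 in GFP- cells for Crabp1; 1.13 in GFP+ and 1.30 in GFP- cells for Crabp2). Aldh1a1, which makes retinoic acid from retinal, was epididymal-high, with 3651, 3315 and 3232 in epididymal GFP+ and 19097, 20832 and 19095 in epididymal GFP- cells. In inguinal cells the order of the sorts was reversed, at 1591, 1471 and 1495 in GFP+ and 488, 475 and 452 in GFP- cells, and the depot difference was -1.15 ± 0.05 in GFP+ and -5.34 ± 0.05 in GFP- cells. Cyp26a1, which degrades retinoic acid, was epididymal-high as well (-1.10 in GFP+ and -3.42 in GFP- cells). Of 21 measured retinoid genes 6 (28.6%) were called higher in inguinal and 5 (23.8%) in epididymal cells, close to the 24.7% and 26.7% of all genes.

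Of 63 measured genes of the matrix list, the rule kept 4 on each side, a count that covers this list alone. Fmod, a small leucine-rich proteoglycan of collagen fibrils, was inguinal-high (1.81 in GFP+ and 3.28 in GFP- cells), and its relatives Dcn (-1.56 in GFP+ and -2.64 in GFP- cells) and Lum (-3.26 in GFP+ and -2.94 in GFP- cells) were epididymal-high. Dcn was detected in all groups, at 5912, 3562 and 6781 in inguinal GFP+, 2284, 2632 and 3236 in inguinal GFP-, 15270.4, 15734 and 15383 in epididymal GFP+ and 15697, 18059.5 and 16858 in epididymal GFP- cells, and its inguinal GFP+ arrays were the most scattered. Dpt, a matrix protein that binds decorin, was inguinal-high in each sort (3.01 in GFP+ and 1.74 in GFP- cells), but inguinal GFP- cells (139 ± 40.2) and epididymal GFP+ cells (88.2 ± 20.2) were close. Elastic-fibre genes also divided, with Fbn2 (1.43 ± 0.17) and Mfap2 (2.02 ± 0.18) inguinal-high and Fbln5 (-1.67 ± 0.09) and Efemp1 (-2.74 ± 0.06) epididymal-high.

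The main fibrillar collagens were near 0, with -0.00 for Col1a1 (adjusted p = 0.934), 0.05 for Col3a1 (adjusted p = 0.185) and 0.16 for Col1a2, which was called. Over the list, 30 of 63 matrix genes (47.6%) were called higher in inguinal and 14 (22.2%) in epididymal cells, with a median of 0.09. Of all genes, 24.7% and 26.7% were so called. Several matrix genes had a large difference in GFP- cells alone, such as Postn (0.26 in GFP+ and 2.48 in GFP- cells) and Thbs2 (0.58 in GFP+ and 2.78 in GFP- cells).

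Genes of the fat lineage gave no single direction. Pparg, the nuclear receptor that drives adipocyte differentiation, was inguinal-high, with 796, 912 and 805 in inguinal GFP+ and 355, 343 and 305 in inguinal GFP- cells against 238, 222 and 183 and 29.7, 28.2 and 48.8 in epididymal GFP+ and GFP- cells. The depot difference was 1.90 ± 0.15 in GFP+ and 2.79 ± 0.15 in GFP- cells, and the GFP+ cells were the brighter within each depot. Ebf3 (3.36 in GFP+ and 3.25 in GFP- cells), an early B-cell factor family member, was kept, whereas its relatives Ebf1 (0.29 in GFP+ and 4.63 in GFP- cells) and Ebf2 (-0.64 in GFP+ and 4.61 in GFP- cells) differed by depot in GFP- cells far more than in GFP+ cells. Klf5, which acts early in adipogenesis, was epididymal-high (-1.46 in GFP+ and -1.18 in GFP- cells). In total 12 of 27 adipogenic regulators (44.4%) were called on each side. Of 25 adipocyte lipid genes 5 (20%) and 7 (28%) were called higher in inguinal and epididymal cells and 0 met the size rule. Of all genes, 24.7% and 26.7% were so called.

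Among fat progenitor surface markers Dpp4 (-2.28 in GFP+ and -4.87 in GFP- cells) and Icam1 (-2.11 in GFP+ and -3.82 in GFP- cells) were kept on the epididymal side. Dpp4 was at or near the floor in inguinal cells (2.89 to 20.5). Of the 18 measured markers, 6 (33.3%) were called higher in inguinal and 7 (38.9%) in epididymal cells (24.7% and 26.7% of all genes).

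Immune and stress genes included large values. Saa3, an acute-phase serum amyloid, read 5030.4, 5085 and 4987 in epididymal GFP+ and 7405, 9668 and 9323 in epididymal GFP- against 94.8 to 189 in inguinal cells. The protease inhibitor Slpi (-4.30 in GFP+ and -6.42 in GFP- cells), haptoglobin, Hp (-5.66 in GFP+ and -3.07 in GFP- cells), and the complement inhibitor Serping1 (-2.93 in GFP+ and -1.82 in GFP- cells) were also epididymal-high, the last 2 with the larger difference in GFP+ cells. The monocyte chemokines Ccl7 (2.15 in GFP+ and 1.83 in GFP- cells) and Ccl8 (3.02 in GFP+ and 1.96 in GFP- cells) and the interleukin-1 receptor antagonist Il1rn (3.0 in GFP+ and 3.72 in GFP- cells) were inguinal-high, while Cxcl1 (-1.07 in GFP+ and -1.39 in GFP- cells) and the colony-stimulating factor Csf3 (-1.28 in GFP+ and -1.04 in GFP- cells) were epididymal-high. Of 41 chemokine and cytokine genes, 6 (14.6%) were called higher in inguinal and 17 (41.5%) in epididymal cells (24.7% and 26.7% of all genes).

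Gzme and Gzmd, granzymes otherwise known from cytotoxic lymphocytes, were inguinal-high. Gzme read 2005, 1958 and 2076 in inguinal GFP+, 1446, 1383 and 1446 in inguinal GFP-, 101, 122 and 94.1 in epididymal GFP+ and 15.8, 25.9 and 7.38 in epididymal GFP- cells. The lymphocyte markers did not accompany it, since 16 of the 17 measured were weakly detected, 0 were called higher in inguinal cells and their summed signal was 829 to 942 on the inguinal and 1133 to 1371 on the epididymal arrays. Gzmd and Gzme are near-identical neighbours, and how far their probe sets share RNA is uncertain. The same holds for Mt1 (1.46) and Mt2 (2.33), metallothioneins that were inguinal-high, and for Hspa1a (-1.84) and Hspa1b (-1.26), heat-shock proteins that were epididymal-high.

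The glutathione transferases Gsta3 (-4.26 in GFP+ and -6.12 in GFP- cells) and Gsta4 (-2.09 in GFP+ and -2.47 in GFP- cells) were epididymal-high. Gsta4 had a GFP effect of -2.36 ± 0.14, with 860.3 ± 178 in inguinal GFP- and 800.2 ± 30.9 in epididymal GFP+ cells overlapping. Further leading genes were Gjb2, a connexin, on the inguinal side (4.32 in GFP+ and 5.40 in GFP- cells), and on the epididymal side the secreted chaperone clusterin, Clu (-4.18 in GFP+ and -7.0 in GFP- cells), the histamine receptor Hrh4 (-5.22 in GFP+ and -4.14 in GFP- cells), the calcium exchanger Slc24a3 (-3.44 in GFP+ and -3.45 in GFP- cells), the histidine-degrading enzyme Hal (-3.59 in GFP+ and -6.17 in GFP- cells) and Nfib, a nuclear factor I protein. Nfib read 298, 268 and 305 and 744, 749 and 793 in inguinal GFP+ and GFP- and 2477, 2685 and 2482 and 6309.5, 7172 and 7094 in epididymal GFP+ and GFP- cells. Its depot difference (-3.10 ± 0.05; interaction adjusted p = 0.559) and GFP effect (-1.38 ± 0.05) thus added up without a detected interaction.

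Cell cycle genes were higher in inguinal cells as a list, by small amounts in both sorts. Of 36 measured, 26 were called higher in inguinal and 3 in epididymal cells, where 24.7% and 26.7% of all genes were, and the median was 0.62 in GFP+ and 0.74 in GFP- cells against -0.04 and -0.02 for all genes. The same split of 26 and 3 was found after quantile normalization and after median centring. Most members lay below the size rule, for example the helicase subunits Mcm3 (0.88 ± 0.05) and Mcm6 (0.59 ± 0.06), the sliding clamp Pcna (0.72 ± 0.03), topoisomerase Top2a (0.60 ± 0.05), the kinase Cdk1 (0.63 ± 0.04) and the proliferation marker Mki67 (0.94 ± 0.09). The 2 that met it were cyclin D1, Ccnd1, and thymidine kinase, Tk1.

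Ccnd1, which drives entry into the cycle, read 5037, 7495 and 5088 in inguinal GFP+ and 6448, 6043 and 5775 in inguinal GFP- against 349, 328 and 356 and 938, 670.0 and 854 in epididymal GFP+ and GFP- cells. Its difference of 4.01 ± 0.13 and 2.88 ± 0.13 was far above that of the other members, and its further probe sets gave 4.55 and 3.53, and 3.49 and 2.57. Tk1 gave 1.22 ± 0.07 and 1.29 ± 0.07. Outside the list, the kept genes Asf1b, a histone chaperone of replication (1.20 in GFP+ and 1.28 in GFP- cells), Uhrf1, a reader of newly copied DNA methylation (1.04 in GFP+ and 1.06 in GFP- cells), and the exonuclease Exo1 (1.15 in GFP+ and 1.61 in GFP- cells) were also inguinal-high. Asf1b read 903 to 1032 on the inguinal and 339 to 438 on the epididymal arrays, without overlap.

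Among the few list members higher in epididymal cells were the cycle inhibitors Cdkn1b (-0.37 ± 0.04) and Cdkn1a (-0.24 ± 0.07) and the kinase Cdk6, which was weakly detected (-1.27 ± 0.30). Per the labels all cultures were harvested before growth arrest, and how dense each was is not given in the sources used here. Whether culture density or growth rate played a part in these values was not tested.

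Promoters of 3 genes of DNA replication and mitosis are shown because the CCAAT box, searched on both strands, was found in 56.7% of the 30 cell cycle list promoters that were matched, against 35.8% of all promoters of tested genes. It was found in 30.4% of inguinal-high and 30.2% of epididymal-high promoters, both below the share of all promoters. Of the 3 genes shown, Asf1b is a kept gene outside the cell cycle list, and Top2a and Mcm6 are list members below the size rule. Asf1b is chr8:83955444-83955693, plus strand, Top2a chr11:99024190-99024439, minus strand, and Mcm6 chr1:128359706-128359955, minus strand, all from RefSeq on GRCm38.p6, 5′ to 3′, up to the base before the start. Capitals mark CCAAT or its reverse ATTGG, and in Mcm6 also TTTGGCGC, an E2F motif.
Asf1b: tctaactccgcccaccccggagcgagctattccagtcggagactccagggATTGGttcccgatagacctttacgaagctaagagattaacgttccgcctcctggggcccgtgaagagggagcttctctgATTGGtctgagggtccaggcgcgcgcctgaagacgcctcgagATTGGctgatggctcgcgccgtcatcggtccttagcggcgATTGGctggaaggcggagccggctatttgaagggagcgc
Top2a: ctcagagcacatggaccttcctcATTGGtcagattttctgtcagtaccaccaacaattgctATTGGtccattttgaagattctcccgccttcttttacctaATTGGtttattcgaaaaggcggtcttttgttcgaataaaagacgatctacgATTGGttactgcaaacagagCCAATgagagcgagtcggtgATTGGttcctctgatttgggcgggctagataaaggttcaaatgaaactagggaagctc
Mcm6: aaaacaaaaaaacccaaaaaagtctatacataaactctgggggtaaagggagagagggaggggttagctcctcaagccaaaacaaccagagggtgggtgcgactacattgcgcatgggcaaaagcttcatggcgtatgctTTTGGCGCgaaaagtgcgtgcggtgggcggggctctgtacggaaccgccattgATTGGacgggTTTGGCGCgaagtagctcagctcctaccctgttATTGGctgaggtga
Asf1b holds 4 CCAAT matches, from -200 to -39, and Top2a 6, from -227 to -58. Mcm6 holds 2 CCAAT matches and the E2F motif at -110 and -47. This E2F motif was in 2 of the 30 cell cycle list promoters and in 0.738% of all promoters of tested genes. A second E2F motif searched, TTTCCCGC, was in 4 of the 30 (13.3%) and in 1.54% of all. Each was in 0 of 102 inguinal-high promoters, which says only that these letters are not in those windows.

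Interferon response genes also leaned to the inguinal side, with a median of 0.45. Of 26 measured, 16 (61.5%) were called higher in inguinal and 2 (7.69%) in epididymal cells (24.7% and 26.7% of all genes). Psmb8, a subunit of the immunoproteasome, met the size rule and read 853 to 899 in inguinal GFP+, 684 to 700.5 in inguinal GFP-, 311 to 381 in epididymal GFP+ and 66.8 to 89.9 in epididymal GFP- cells (1.30 in GFP+ and 2.95 in GFP- cells). Usp18, which restrains interferon signalling, was the other (1.39 in GFP+ and 1.79 in GFP- cells), with an inguinal GFP+ range of 130.1 to 331. The transcription factor Stat2 (0.90 ± 0.11) and the class I gene H2-K1 (0.71 ± 0.08) were called with smaller values. Irf7 (-0.51 ± 0.10) and Gbp2 (-0.55 ± 0.10) were the 2 called higher in epididymal cells.

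**Figure D4:**
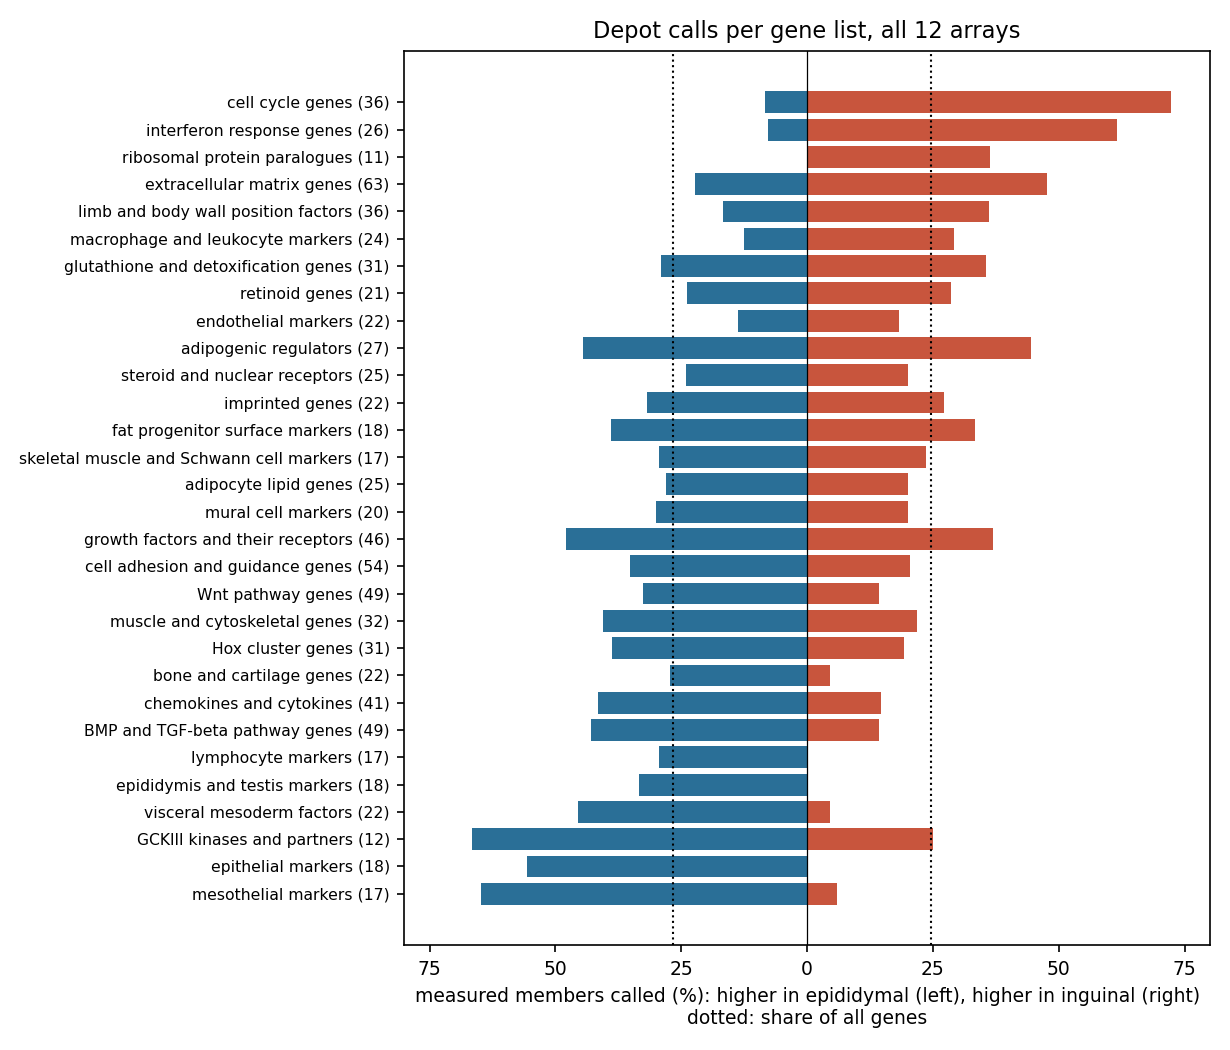
Share of the measured members of each gene list (number in parentheses) called in the common depot fit, higher in inguinal cells to the right and higher in epididymal cells to the left, with the shares of all 12393 genes (24.7% and 26.7%) as dotted lines. Cell cycle and interferon response genes reach farthest right, and GCKIII kinases with their partners, mesothelial and epithelial markers farthest left.

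Markers of mesothelium had the largest median shift of the lists examined. Of 17 measured, 11 (64.7%, beside 26.7% of all genes) were called higher in epididymal cells, 10 of them within the size rule. The median was -1.89 in GFP+ and -3.90 in GFP- cells. Upk3b, a uroplakin of the mesothelial surface, read 592, 582 and 625 in epididymal GFP+ and 9045, 9812 and 9518 in epididymal GFP- cells, against 4.72 to 17.7 in inguinal cells. Msln, mesothelin (-1.89 in GFP+ and -5.23 in GFP- cells), Krt8 (-2.64 in GFP+ and -5.99 in GFP- cells) and Krt18 (-3.52 in GFP+ and -5.66 in GFP- cells), the keratins of simple epithelia and mesothelium, and Gpm6a (-1.71 in GFP+ and -5.74 in GFP- cells) followed it, each with the larger difference in GFP- cells. Wt1 and Efemp1 are members of this list too, and their gaps between sorts were small beside those (-5.60 in GFP+ and -6.22 in GFP- cells for Wt1; -2.65 in GFP+ and -2.83 in GFP- cells for Efemp1). The gap was called for Wt1, also with the larger difference in GFP- cells (interaction adjusted p = 0.0245), and not for Efemp1 (adjusted p = 0.173).

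Krt19, another simple-epithelium keratin, ran against the list. It read 1298, 1402 and 1175 in inguinal GFP+ and 1203, 1243 and 1113 in inguinal GFP- cells and 203, 185 and 184 and 267, 177 and 205 in epididymal GFP+ and GFP- cells (2.52 ± 0.09). Krt7 had opposite signs in the sorts, with 3.01 in GFP+ and -3.48 in GFP- cells. The part that mesothelial cells had in the epididymal-high values was not tested. Left out together with the macrophage list, the mesothelial markers took 11 genes off the count of 385, leaving 374.

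Macrophage and leukocyte markers had no member within the size rule. Their median was -0.32 in GFP+ and 1.68 in GFP- cells, and 7 of 24 (29.2%) were called higher in inguinal and 3 (12.5%) in epididymal cells. Epithelial markers, 14 of 18 weakly detected, had 10 (55.6%) called higher in epididymal cells, with Krt8, Krt18 and Elf3 (-1.27 in GFP+ and -2.32 in GFP- cells) kept. The sum of the epithelial markers was 518 to 654 in inguinal, 1654 to 1786 in epididymal GFP+ and 8607 to 8692 in epididymal GFP- cells. Of 18 markers of epididymis and testis, tissues that adjoin the epididymal depot, 12 were weakly detected and 6 (33.3%) were called higher in epididymal cells. Among the called ones Ddx4 met the size rule (-1.06 in GFP+ and -3.23 in GFP- cells) on a weakly detected probe set. Endothelial markers gave 4 inguinal (18.2%) and 3 epididymal (13.6%) calls of 22, and mural cell markers 4 (20%) and 6 (30%) of 20. For skeletal muscle with Schwann cells it was 4 (23.5%) and 5 (29.4%) of 17. Of all genes, 24.7% were called higher in inguinal and 26.7% in epididymal cells. The size rule kept 2 endothelial and 3 mural markers on the epididymal and 0 on the inguinal side (2.0% and 1.11% of all genes). The endothelial sum was 2540 to 2793 in inguinal, 3505 to 3622 in epididymal GFP+ and 6496 to 6853 in epididymal GFP- cells. In each group 15 to 17 of the 22 had a weak mean. The mural sum was highest in epididymal GFP+ cells (184550 to 187422).

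**Figure D5:**
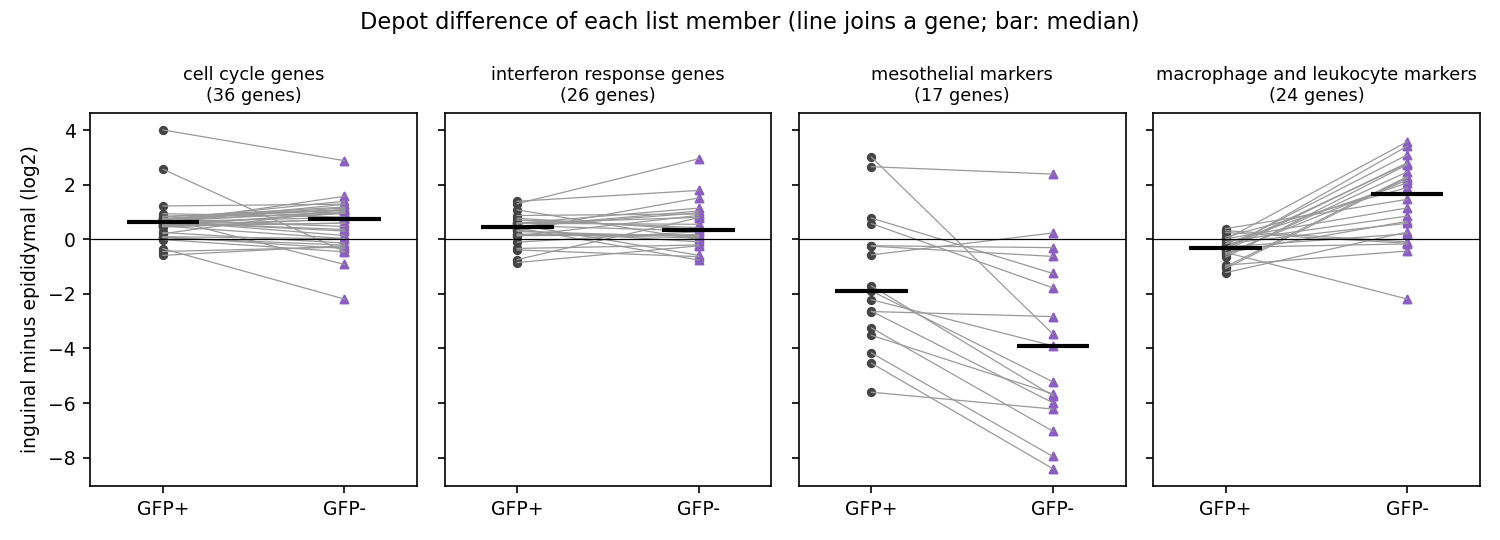
Inguinal minus epididymal difference (log2) of each measured member of 4 lists in GFP+ and GFP- cells, with a line joining the values of a gene and a bar at the median. Cell cycle and interferon response genes have similar medians in the sorts, whereas mesothelial markers lie lower and macrophage markers higher in GFP- than in GFP+ cells.

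Although every kept gene shared its sign, the size often depended on the sort. The test of the difference between the GFP+ and GFP- depot values was called for 228 of the 385 genes (59.2%), against 34.8% of all genes. Since that test uses the values by which the genes were kept, the count is a description. On the epididymal side 153 were called, 131 with the larger difference in GFP- and 22 in GFP+ cells. On the inguinal side 75 were called, 59 with the larger difference in GFP- and 16 in GFP+ cells. Of all genes 16.1% had the more positive depot difference in GFP+ and 18.7% in GFP- cells, and median centring turned this to 2451 and 1880 genes from 2000 and 2313.

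Among the 20 leading inguinal genes the sorts differed for 6 and among the 20 leading epididymal genes for 17, of which 16 had the larger difference in GFP- cells and 1, Hrh4, in GFP+ cells. The sorts were within 0.5 of each other for 69 inguinal-high and 97 epididymal-high genes. Rpl39l, Shox2, Tbx15, Lhx8, Hoxa10, Ebf3 and Grem1 were such inguinal genes, and Tcf21, Wnt4, Nfib, Frzb, Llgl2 (-1.39 in GFP+ and -1.36 in GFP- cells), a cell polarity protein, and Slc24a3 such epididymal genes.

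The sort effect common to both depots was not used by the rule, but it comes from the same arrays. For genes near the floor in the lower depot it rests on the sorts of the higher depot, as the interaction does. The counts that follow are therefore a description. It was called for 16.9% of all genes, 8.05% higher in GFP+ and 8.88% higher in GFP- cells. Of the 137 inguinal-high genes 52 were called higher in GFP+ and 8 higher in GFP- cells, with a median GFP effect of 0.29. Of the 248 epididymal-high genes 11 were called higher in GFP+ and 125 higher in GFP- cells, with a median of -0.52, while the median over all genes was -0.00. The mesothelial sum was highest in epididymal GFP- cells, as given above, and its part in these counts was not tested.

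The GFP effect was not the same in both depots for many genes, and its count of calls fell from 2098 to between 1158 and 1256 genes when any 1 of the 6 epididymal arrays was left out. The total of kept genes called for it then went from 196 to between 132 and 141. Genes with a clear effect of both factors included Tenm3, a teneurin of cell contacts (depot -2.60 ± 0.07; GFP -1.13 ± 0.07), Spata13, an exchange factor for small GTPases (-1.88 ± 0.06; -0.88 ± 0.06), Gatm, an enzyme of creatine synthesis (-1.88 ± 0.12; -1.73 ± 0.12), and Pi15, a secreted protease inhibitor (1.69 ± 0.15; 1.97 ± 0.15).

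Genes with a small p in the interaction test included 3 with graded levels. Ezr, an organiser of the cell cortex, read 668 to 914 on the inguinal arrays, 1802 to 1918 in epididymal GFP+ and 14556 to 15978 in epididymal GFP- cells. Ccn5, a matricellular protein, read 6813 to 10844, 2001 to 2222 and 328 to 358, and Loxl3, a lysyl oxidase, 12593 to 14038, 3933 to 4120.3 and 1469 to 1591. In all 3 genes epididymal GFP+ cells lay between the inguinal cells and epididymal GFP- cells.

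Neighbouring genes were at times kept together. In RefSeq gene order over 12377 tested genes, 22 adjacent pairs had both members kept, 19 on the same side and 3 on opposite sides. Same-side pairs included Irx1 with Irx2, Irx3 with Irx5, Dcn with Lum, Krt8 with Krt18 and Gzme with Gzmd, and the opposite pairs were Hoxa7 with Hoxa9, Upk3b with Rasa4 and Atp1b1 with Dpt. Several of these pairs are related genes, and the part of such relatedness in the count was not tested.

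Of the other motifs searched in the 250 upstream bases on both strands, CTTTGAT, bound by Tcf and Lef factors, was in 6.77% of epididymal-high, 1.96% of inguinal-high and 2.60% of all promoters of tested genes. The homeobox motif TAATTA was in 3.92%, 3.13% and 2.94% of inguinal-high, epididymal-high and all promoters. The T-box motif AGGTGTGA was in 0 of 102 inguinal-high promoters and 0.839% of all promoters, and the AP-1 motif TGACTCA in 5.88%, 3.65% and 3.90%. The full palindromic NFI site was in 0 kept and 5 of all promoters. No test was made of these shares.

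Further probe sets of the same genes read the same RNA on the same 12 arrays, many of them the same transcript, so their values describe the reading of a gene and are no independent support. Of the 385 genes 160 had at least 1, 264 in all. Of the 162 above the weak-signal level 159 had the same sign in both sorts and 103 reached 1 in both. Of the 102 that were weakly detected, 67 had the same sign in both sorts and 15 reached 1. The 3 detected probe sets of another sign belonged to Cpxm2, Mtm1 and Smpd3.

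The lower depot was weakly detected in at least 1 sort for 71 of the 137 inguinal-high and 96 of the 248 epididymal-high genes, and for these the size of the difference rests on the array floor and the added 16. When both depots were required above the weak-signal level in both sorts, 66 and 152 genes remained. The median of the smaller difference was 1.53 on the inguinal and 1.32 on the epididymal side, and 69 and 94 genes reached 1.5 in both sorts. The others lay nearer the limit of 1. Just inside it were Tiam2 (1.00001 in GFP+ and 1.41 in GFP- cells), Fes (1.001 in GFP+ and 1.52 in GFP- cells) and Aqr (1.18 in GFP+ and 1.002 in GFP- cells) on the inguinal side, and Rcan2 (-1.001 in GFP+ and -4.15 in GFP- cells), Gucy1a1 (-1.001 in GFP+ and -1.40 in GFP- cells) and Gdpd1 (-1.002 in GFP+ and -1.52 in GFP- cells) on the epididymal side. Just outside it were Dtl (0.999 in GFP+ and 1.07 in GFP- cells), Gas2 (1.10 in GFP+ and 0.99 in GFP- cells) and B3gnt5 (1.34 in GFP+ and 0.99 in GFP- cells), and Speg (-0.997 in GFP+ and -1.56 in GFP- cells), Dnajb8 (-0.996 in GFP+ and -1.59 in GFP- cells) and Slc4a5 (-1.10 in GFP+ and -0.99 in GFP- cells).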

How the data were processed

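Per the labels' protocols, biotin-labelled cRNA of the 12 samples was hybridised to Affymetrix arrays. The authors deposited 1 intensity per probe set and array, which by its range is linear. The signal algorithm, background correction and scaling are not given in the sources used here. Of 22626 probe sets, 20380 carried 1 gene symbol in the platform annotation, 691 several and 1555 none, and those with 1 were used. RefSeq (assembly GRCm38.p6) served to update symbols, and 16 had no current match. The probe set with the highest mean of log2(intensity + 16) stood for its gene, which gave 12393 genes. Those in the lowest 30% of means (under 6.55 in log2 or 77.7 in intensity) are called weakly detected but were not removed. The added 16 understates the differences of low genes, and no further normalization was applied.

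Groups came from the labels. In limma 3.58.1 (under R 4.3.3, with a variance trend in eBayes) the depot and GFP coefficients came from an additive model of depot and sort over all 12 arrays. That model has no interaction term, so a depot difference that varied with the sort widened its SE. The depot differences within each sort and their difference (interaction) came from a model of the 4 group means. P-values were adjusted by the Benjamini-Hochberg method over all genes at 0.05. The scripts were tested on simulated data. The number of arrays limits the precision. No 2 arrays held identical values. Samples with the same replicate number deviated together at r of -0.06 to 0.04 over 18 pairs, so no shared deviation by number was seen. This cannot tell whether samples of the same number came from the same animal, culture or sort, which is not stated.

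The members and the gene lists were chosen with earlier results of these data known. Genes could be named as kept genes, beginning with the 20 per side with the largest smaller difference whose arrays did not overlap and whose higher depot was detected. Others were members of lists (called ones with the smallest adjusted p first, up to 6), the 3 genes per side just inside and outside the limit, and kept genes with the smallest p of interaction or GFP effect. Further list members, such as Axin2, Rpl39 and Gata4, were chosen after their values were seen. Alternatives were pseudocounts of 1 and 64, quantile normalization or median centring, the replicate block, the mean of all probe sets, removal of weakly detected genes, other models and thresholds, and each array left out. Requiring both depots detected in both sorts was added after the data were seen.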

Additional observations from a re-analysis of the deposited data

Results flagged for a closer look

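The depot difference was not of one size in the sorts for many of the kept genes. The interaction test was called for 228 of the 385, and all values that follow are the depot difference in GFP+ minus that in GFP- cells on the log2 scale. Among epididymal-high genes a positive value means a larger difference in GFP- cells. It was found for Aldh1a1 (4.18), Upk3b (3.87), Bnc1 (3.79), Rspo1 (3.79), Ezr (3.30), Bmp4 (3.06), Mtss1, an actin regulator (3.06), Cxadr, a cell adhesion receptor (3.0), and Stk26 (2.98). Clu (2.81), Hal (2.57), Perp (2.42), a desmosome protein, Krt18 (2.15), Slpi (2.12), Igfbp3 (2.09), Frmd4b (1.97), Gsta3 (1.86), Slc9a3r1 (1.52), a binding partner of ezrin, Saa3 (1.09) and Wt1 (0.62) had the same sign. Hrh4 gave -1.08, a larger difference in GFP+ cells.

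Among inguinal-high genes a negative value means a larger difference in GFP- cells. This was found for Fgf7 (-3.88), Ccn5 (-3.11), Tcfl5, a germline transcription factor (-2.75), Gzme (-1.45), Loxl3 (-1.26), Gjb2 (-1.08) and Evi2a (-0.91). The opposite was found for Rspo2 (1.53), Dkk2 (1.32) and Ccnd1 (1.13). Groups of 3 arrays were not searched for single outlying arrays.

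Outside the genes tested, 61 of the 2246 probe sets with no gene symbol or with several met the size rule, 21 on the inguinal and 40 on the epididymal side. That is 2.72%, beside 3.11% of the tested genes.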

How the results depend on the processing

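The count of 385 kept genes stayed within 1.5 times its value after quantile normalization (351, of which 333 were among the 385, with 155 inguinal-high and 196 epididymal-high in place of 137 and 248), median centring (365), without weakly detected genes (336), with the mean of all probe sets (335) and with any 1 array left out (374 to 388). It became 579 with a pseudocount of 1, 247 with a pseudocount of 64, 163 and 1555 with a size limit of 1.5 and 0.5, and 218 with both depots detected in both sorts. These follow from the rule's own limit and the floor of the arrays. The common depot count of 6359 was 7501 with the average of the depot differences of the sorts in the model of the 4 group means. It was 3981 when a call in both sorts separately was required, 674 with a minimum change of 1.5-fold and 5923 to 6249 with 1 array left out. Its split of 3056 inguinal and 3303 epididymal calls became 3217 and 2869 after quantile normalization and 3136 and 3156 after median centring. The common GFP count of 2098 was 1221 with the replicate block, 675 at an adjusted p of 0.01 and 1158 to 2323 with 1 array left out, the low values all from leaving out an epididymal array. With 1 array left out the depot counts were 5698 to 6290 in GFP+ and 6088 to 6781 in GFP- cells, and the interaction count 3897 to 4317. The replicate block gave 6032 common depot calls, and whether samples of the same number are paired is not stated. With the block 137 of the 196 kept genes called for the GFP effect were called.

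Reversed signs came from probe set choice and the floor. Cpxm2, main value 2.55, gave -0.42 with a pseudocount of 1, where another of its probe sets, itself at -0.37, stood for the gene. Acta2 gave -0.22 and Nr4a2 0.61 with the mean of their probe sets and -0.63 and 1.67 on a single further probe set. Rps4x gave -0.56 and -1.19 in the same way, and Rpgrip1 -0.67 on a further, single probe set. Which probe set reads the gene better was not tested. At low signal the number of arrays and the floor limit what can be told, and differences near the floor have no order.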
